A study of Rattus norvegicus with 6 samples.

Results

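The 8 genes described here encode the D-type cyclins (Ccnd1, Ccnd2 and Ccnd3), their kinase partners (Cdk4 and Cdk6) and 3 inhibitors of cyclin-dependent kinases (Cdkn1a, Cdkn1b and Cdkn2c). They are 8 of the 25399 genes in the count tables, of which 19068 had at least 1 UMI (unique molecular identifier, a count of 1 captured RNA molecule) in the cells kept. They were selected by symbol, because Ccnd1 and Cdkn2c had been seen to differ in opposite directions in microglia and macrophages between infarction and sham. That contrast in those cells is therefore given below as a description with no test, and tests were run on the cell classes that the choice did not use.

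D-type cyclins accumulate when a cell receives growth signals and bind CDK4 or CDK6. The active kinases phosphorylate the retinoblastoma protein, which releases E2F factors and lets the cell enter S phase. Cdkn2c encodes p18, an INK4 inhibitor that binds CDK4 and CDK6 directly, Cdkn1b encodes p27, which holds resting cells out of the cycle, and Cdkn1a encodes p21, a p53 target that rises with DNA damage and stress but also in differentiating cells. In the brain, Ccnd1 is abundant in proliferating oligodendrocyte precursors, and microglia divide after injury.

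Brain cells of rats (strain Sprague Dawley, age given as postnatal day 21) were profiled by single-cell RNA sequencing in 3 sham libraries (sham 1 to 3) and 3 libraries after pontine infarction (infarction 1 to 3), a stroke of the pons in the brainstem. No transgene, drug or sort is given in the labels, nor the time between infarction and sampling. The labels number the libraries and speak of 3 rats with infarction, but do not say that each library is a separate rat, so a p-value here covers only how far these libraries spread, which may be technical. The libraries held 56416475 to 69924334 UMIs, and 37853 of 44011 barcodes were kept, with 8 to 21 barcodes shared between any 2 libraries. The median mitochondrial share per library was 9.66% to 10.2% of UMIs in sham and 5.59% to 7.81% in infarction.

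Cells were clustered without the 8 genes among the clustering genes, and clusters took a cell class name from marker genes, so names such as microglia are short for microglia-like. Levels are CPM, the UMIs of a gene scaled to a common total over the summed UMIs of 1 class in 1 library, and are compared within a gene. Fold changes are on the log2 scale, infarction over sham, from edgeR with TMM scaling, which moved them against plain CPM by 0.31 in macrophages, 0.26 in oligodendrocyte precursors, 0.15 in endothelial cells, 0.05 in T or NK cells, 0.02 in dendritic cells and -0.02 in microglia.

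Ccnd1 was highest in oligodendrocyte precursors, at 2032 ± 433 CPM after infarction and 1173 ± 431 CPM in sham (SD, n = 3 libraries each). Among the 19 combinations of class and group with 20 cells in each of 3 libraries, pericytes in sham came next (631 ± 27.1 CPM), then microglia after infarction (441 ± 40.6), macrophages in sham (313 ± 11.6) and endothelial cells in sham (246 ± 40.5). Neighbours among these 6 did not overlap. From endothelial cells in sham down to dendritic cells after infarction (129 ± 25.2) each class overlapped the next, and a gap followed, with 8 class and group combinations between 32.1 CPM (macrophages after infarction) and 9.81 CPM (T or NK cells in sham).

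Ccnd2, the D cyclin that can stand in for Ccnd1 in several tissues, had another order among the same 19 combinations, to which the levels of the other genes also refer. It was highest in pericytes in sham (153 ± 4.67 CPM) and smooth muscle cells in sham (116 ± 5.69 CPM), which did not overlap each other or the next class. Ccnd3, the D cyclin of lymphocytes, was highest of the 19 in T or NK cells in sham (160 ± 27.3 CPM), which overlapped endothelial cells after infarction (121 ± 19.2) and these overlapped endothelial cells in sham (120 ± 9.36). Outside the 19, the single sham library with 20 neutrophils held 373 CPM of Ccnd3 and that with 20 monocytes 232 CPM.

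Both kinases were highest in oligodendrocyte precursors after infarction. Cdk4 reached 34.5 ± 9.11 CPM there, without overlap with microglia after infarction (15.9 ± 2.79). Cdk6 reached 15.8 ± 4.42 CPM, which overlapped macrophages in sham (12.9 ± 4.50).

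Each inhibitor was highest in another of the 19 combinations. Cdkn2c was highest in oligodendrocyte precursors after infarction (120 ± 43.4 CPM), which overlapped neurons in sham (62.5 ± 36.4). Among the 19, Cdkn1a was highest in endothelial cells in sham (323 ± 83.8 CPM) and neutrophils after infarction (297 ± 27.0), and lowest in microglia in sham (12.7 ± 2.73), while choroid plexus cells, with 20 cells in only 2 sham libraries, held 361 and 423 CPM. Cdkn1b was highest of the 19 in T or NK cells after infarction and in sham (165 ± 17.4 and 146 ± 26.4 CPM) and lowest in macrophages after infarction (13.4 ± 0.743), while Schwann cells in the 2 sham libraries with 20 of them held 588 and 363 CPM. Mature oligodendrocytes had only 56 sham and 22 infarction cells, so the oligodendrocyte lineage is described by its precursors, and in the single library with 20 such cells, sham 3, they held 26.4 CPM of Ccnd1 and 148 CPM of Cdkn1b.

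**Figure D1:**
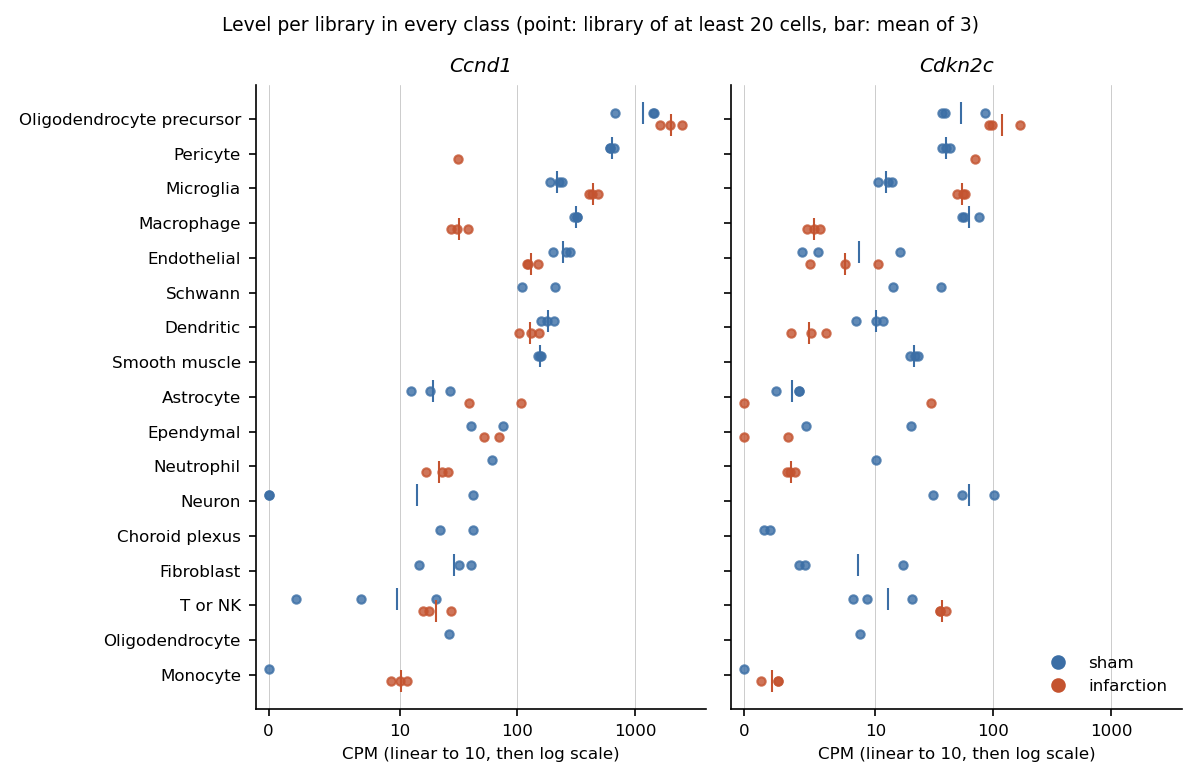
Ccnd1 and Cdkn2c in CPM (axis linear to 10, then logarithmic) by cell class, 1 point for each library with at least 20 cells of the class, coloured by group. Ccnd1 in oligodendrocyte precursors lies between 675 and 2486 CPM, and in macrophages the sham points lie at 300 to 321 CPM and the infarction points at 27.4 to 38.1 CPM.

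In microglia, Ccnd1 stood at 238, 226 and 191 CPM in sham 1 to 3 and at 404, 484 and 434 CPM in infarction 1 to 3. All infarction libraries were above all sham libraries, with a log2 fold change of 1.0 ± 0.10 (SE). Ccnd3 was at 23.3 to 29.3 CPM in sham and 32.5 to 39.5 CPM after infarction (0.47 ± 0.12). Ccnd2 overlapped between groups, at 20.6 to 22.8 and 17.5 to 24.99 CPM (-0.09 ± 0.14).

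The kinase transcripts were scarce in sham microglia and did not overlap between groups. Cdk4 was at 3.36 to 4.18 CPM in sham and 13.7 to 19.0 CPM after infarction (2.04 ± 0.20), and Cdk6 at 2.32 to 3.12 and 12.2 to 12.5 CPM (2.03 ± 0.17).

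The inhibitors did not move one way in microglia. Cdkn2c stood at 13.95, 10.4 and 12.7 CPM in sham and 57.9, 48.8 and 55.1 CPM after infarction (2.13 ± 0.13). Cdkn1a was at 15.8, 11.1 and 11.1 CPM in sham and 54.1, 49.0 and 65.4 CPM after infarction (2.20 ± 0.15). Cdkn1b lay the other way, at 43.9 to 54.9 CPM in sham and 28.5 to 34.8 CPM after infarction (-0.56 ± 0.12). Summed over all microglia, p18 and p21 transcripts were thus higher and the p27 transcript lower in all 3 infarction libraries than in sham. The clusters described below did not all follow this. Cycling microglia after infarction held the most Cdkn2c, and also more Cdkn1b (44.3, 42.2 and 35.9 CPM) than the Ccl4-led cluster (26.9, 23.7 and 34.2 CPM).

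In macrophages, Ccnd1 stood at 319, 321 and 300 CPM in sham and 38.1, 30.8 and 27.4 CPM after infarction (log2 fold change -2.98 ± 0.13). Cdkn2c was at 54.5, 75.9 and 56.3 CPM in sham and 5.30, 5.74 and 4.78 CPM after infarction (-3.26 ± 0.18). The groups were far apart for both genes, in the direction opposite to microglia.

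Ccnd2 (-2.51 ± 0.24), Cdkn1b (-1.57 ± 0.19) and Cdk6 (-0.69 ± 0.28) also lay lower in every infarction library of macrophages. Ccnd3 went from 22.6 to 26.9 CPM in sham to 17.0 to 20.3 CPM after infarction, with a TMM-scaled log2 fold change of -0.13 ± 0.17. Cdkn1a lay higher, at 37.2 to 42.9 CPM in sham and 50.6 to 60.1 CPM after infarction (0.74 ± 0.14), and Cdk4 overlapped (0.81 ± 0.33). Of the 8 genes, 6 were past an adjusted p of 0.05 upward and 1 downward in microglia, where edgeR's quasi-likelihood test called 32.4% of genes higher and 31.8% lower. In macrophages 1 was past it upward and 4 downward, beside 28.4% of genes higher and 28.1% lower, and nothing is read from these counts since this contrast chose the genes.

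The cells behind these classes differed between the groups. Microglia of sham were 72.2% from a Tmem119-led cluster, 23.2% from a shallow Anxa3-led cluster (median 1257 UMIs), 3.96% from a Ccl4-led cluster and 0.696% from a cycling cluster led by Mki67, Top2a and Ube2c. After infarction these shares were 5.71%, 30.4%, 40.5% and 23.3%. Macrophages of sham were 99.7% from a Lyve1-containing cluster led by Cxcl13 (378 cells), whereas after infarction 88.1% came from an Apoc1-led cluster (3118 cells), 7.23% from a Cxcl11-led cluster (256 cells) and 4.72% from the Lyve1 cluster (167 cells). These shares and the macrophage levels leave out a Ccl24-led cluster of 2988 infarction and 0 sham cells, which had 6 macrophage markers but more monocyte than macrophage markers among its leading genes and stayed unnamed. At the coarser Leiden resolution of 0.6, 1 macrophage cluster held 6867 cells, and over all macrophages the log2 fold change was then -3.46 for Ccnd1, -3.47 for Cdkn2c and 1.37 for Cdkn1a.

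Within the Lyve1 cluster, which both groups held, the macrophage pattern was smaller. Ccnd1 was at 319, 321 and 301 CPM in sham and 244, 233 and 282 CPM after infarction, without overlap (-0.28 ± 0.15), against -2.98 over all macrophages. Cdkn2c overlapped there, at 54.5, 75.9 and 57.3 CPM in sham and 37.7, 67.1 and 39.1 CPM after infarction (-0.33 ± 0.26). The low values of the class lay in the Apoc1-led cluster, with 22.6 to 25.2 CPM of Ccnd1, 3.53 to 4.32 CPM of Cdkn2c and 11.6 to 11.9 CPM of Cdkn1b over the 3 infarction libraries, a cluster with 1 sham cell.

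Cdkn1a showed the reverse in the Lyve1 cluster. It stood at 37.2, 42.0 and 34.9 CPM in sham and 187, 143 and 167 CPM after infarction (2.15 ± 0.19), while the Apoc1-led cluster held 44.5 to 49.4 CPM and the Cxcl11-led cluster 92.5 to 123 CPM. The fold change within the Lyve1 cluster was thus larger than that over all macrophages for Cdkn1a and smaller for Ccnd1, Cdkn2c and Cdkn1b (-0.04 ± 0.25).

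Among microglia, Ccnd1 lay higher after infarction in each cluster that could be compared. In the Tmem119-led cluster it was at 201 to 243 CPM in sham and at 732, 516 and 307 CPM in infarction 1 to 3, which had 14, 107 and 85 such cells (0.93 ± 0.21). In the Ccl4-led cluster it was at 207, 142 and 147 CPM in sham, from 11, 12 and 108 cells, and 427, 542 and 512 CPM after infarction (1.45 ± 0.18). In the shallow Anxa3-led cluster it was at 118 to 209 CPM in sham, from 20 to 58 UMIs, and 315 to 408 CPM after infarction. In the Tmem119-led cluster Cdkn2c overlapped, at 4.75 to 6.45 CPM in sham and 0 to 17.4 CPM after infarction (0 to 9 UMIs). Cdkn1a did too, at 6.65 to 14.8 and 0 to 13.5 CPM. In the Ccl4-led cluster Cdkn2c lay higher, at 0 to 7.11 and 16.9 to 18.4 CPM. Cdkn1a lay higher there too, at 0 to 47.4 and 55.2 to 84.7 CPM. In the Anxa3-led cluster Cdkn2c lay higher, 0 to 13.7 against 36.3 to 44.7 CPM, and Cdkn1a overlapped.

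Cdkn2c was highest in cycling microglia. In infarction 1 to 3 the Mki67-led cluster held 99.2, 105 and 101 CPM and the Ccl4-led cluster 18.4, 16.9 and 17.3 CPM, ratios of 5.39, 6.20 and 5.83 within a library. The shallow Anxa3-led cluster lay between them, at 44.7, 40.4 and 36.3 CPM from 21, 72 and 27 UMIs. Against the Ccl4-led cluster, the other members had ratios of at most 1.78. Cdkn1b ratios were 1.65, 1.78 and 1.05, Ccnd1 ratios 0.898, 0.790 and 0.748, and Ccnd2 ratios 0.582, 0.430 and 0.615. In sham only sham 3 had 10 or more cycling microglia, and its 15 cells held 330 CPM of Cdkn2c and 152 CPM of Ccnd1.

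With the cycling cluster left out, the log2 fold change of Cdkn2c in microglia was 1.68 in place of 2.13, that of Ccnd1 1.10 and that of Cdkn1b -0.83, while Ccnd2 turned from -0.09 to 0.19.

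**Figure D2:**
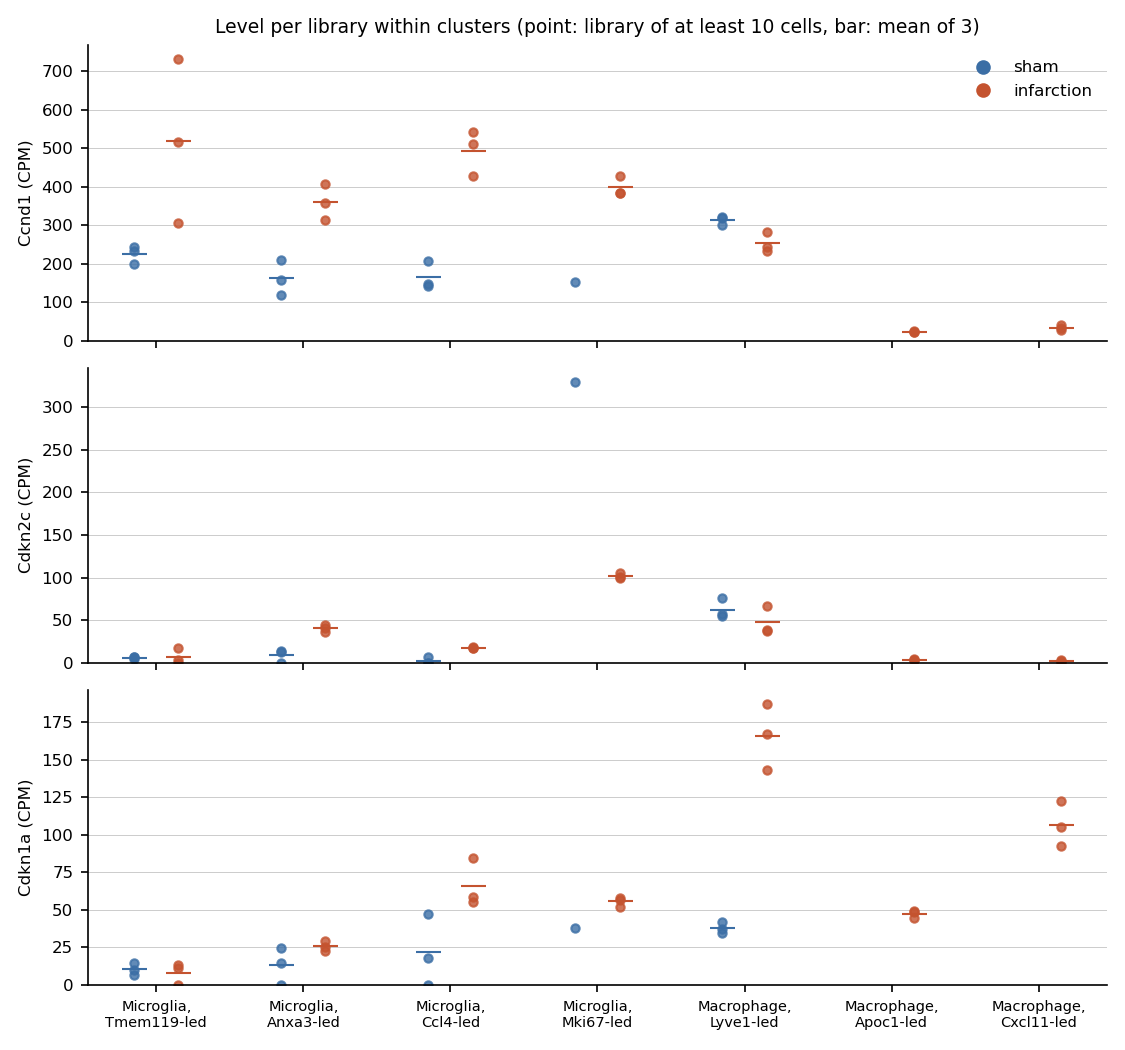
Ccnd1, Cdkn2c and Cdkn1a in CPM by cluster of microglia and macrophages, 1 point for each library with at least 10 cells of the cluster, coloured by group. Cdkn2c is at 99.2 to 105 CPM in the Mki67-led microglia of infarction and 16.9 to 18.4 CPM in the Ccl4-led microglia, and Cdkn1a is at 143 to 187 CPM in the Lyve1 cluster of infarction.

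The pathway lists differed between the classes in the same contrast. In microglia all 22 genes of an S phase list were called higher, and 16 of 17 mitosis genes higher and 1 lower. Ccne1, the cyclin that acts after the D cyclins, had a log2 fold change of 5.87 ± 0.23, Ccna2 4.39 ± 0.19 and the E2F partner Tfdp1 2.67 ± 0.10. In macrophages 3 of 20 S phase genes tested were called higher and 1 lower, and the median log2 fold change of 10 mitosis genes was -0.07 against -0.02 over all genes. The genes that report ERK signalling, a route that induces D cyclins, had 0 higher and 7 lower of 10 in macrophages. Dusp6 was at -3.71 ± 0.13 there, Etv1 at -2.73 ± 0.17 and Etv5 at -2.70 ± 0.18. In microglia 4 of 11 were higher and 4 lower, with Dusp6 at -2.19 ± 0.18 and Phlda1 at 1.95 ± 0.21. Csf1r, the receptor that maintains these cells, was at -1.33 ± 0.07 in microglia and -2.44 ± 0.08 in macrophages. Csf1, a ligand of that receptor, lay the other way, at 4.16 ± 0.48 and 2.76 ± 0.32. These counts lie in the contrast that chose the 8 genes and are a description only.

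Markers of other cells moved as well. In microglia the summed level of 10 smooth muscle markers was 845 to 1050 CPM in sham and 2.83 to 4.40 CPM after infarction, and that of 11 macrophage markers 189 to 243 CPM and 8851 to 14267 CPM (8 of 11 higher without overlap). The 12 microglial markers themselves summed to 23054 to 26097 CPM in sham and 11417 to 14181 CPM after infarction, with Tmem119 at 899 to 1097 and 115 to 179 CPM, and Siglech at or near 0. The part of these shifts in the values of the 8 genes was not tested.

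Apart from microglia and macrophages, 4 classes had at least 20 cells in all 6 libraries, namely oligodendrocyte precursors, T or NK cells, endothelial cells and dendritic cells. In each, genes were called at an adjusted p under 0.05 in edgeR's quasi-likelihood test, with Benjamini-Hochberg adjustment over all genes tested in the class. With 3 libraries against 3, the exact two-sided permutation test cannot go below p = 0.1, which every call of a member below reached.

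In oligodendrocyte precursors (233 sham and 179 infarction cells), Ccnd1, Cdk4 and Cdkn2c were called higher. Of the 8 genes, 6 passed the filter on low counts, and 3 of these were called higher and 0 lower, in a class where 14.2% of 6800 genes were called higher and 13.7% lower. The filter can keep a gene through the group where it is high. Cdk4 passed through its infarction libraries, while Ccnd2, which lay lower after infarction, failed. The split of calls by direction is thus partly set by the filter, and nothing is read from it. Ccnd1 stood at 1405, 1438 and 675 CPM in sham and 1985, 2486 and 1625 CPM after infarction. No infarction library was as low as the highest sham library, and sham 3 was lowest of all. The log2 fold change was 1.07 ± 0.35 (SE; edgeR adjusted p = 0.0474).

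Cdk4 was at 19.3, 11.1 and 9.83 CPM in sham, from 11, 5 and 6 UMIs, and 42.6, 36.3 and 24.6 CPM after infarction, from 32, 22 and 16 UMIs, without overlap (1.62 ± 0.40, edgeR adjusted p = 0.0147). Cdkn2c was at 36.9, 84.3 and 39.3 CPM in sham and 97.2, 170 and 92.4 CPM after infarction, where sham 2 came near the lowest infarction library (1.45 ± 0.40, edgeR adjusted p = 0.0261). The cyclin and the INK4 inhibitor were thus both called higher. Cdk4 passed the filter through its infarction libraries, so its call is given as a description only.

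Cdk6, the other kinase, was too sparse to be tested, with 1, 0 and 0 UMIs in sham and 8, 11 and 12 UMIs after infarction. Ccnd2 also failed the filter, at 29.9, 66.6 and 16.4 CPM in sham and 10.7, 6.59 and 9.24 CPM after infarction. Ccnd3 had 44.2 to 84.3 CPM in sham and 26.2 to 42.9 CPM after infarction, without overlap, and was not called (-0.66 ± 0.34, edgeR adjusted p = 0.187). Cdkn1a (0.71 ± 0.61, edgeR adjusted p = 0.434) and Cdkn1b (-0.22 ± 0.26, edgeR adjusted p = 0.562) overlapped between groups.

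These calls rest on few libraries. The Ccnd1 call was lost when any library but infarction 3 was left out, with fold changes of 0.81 to 1.34 and edgeR adjusted p up to 0.120. The Cdk4 call was lost without infarction 1 (edgeR adjusted p = 0.0656) or infarction 2 (0.0540), and that of Cdkn2c without sham 1 (0.112), sham 3 (0.0848) or infarction 2 (0.0901). Cdkn1a was called where cells with over 10% mitochondrial UMIs were left out (1.75, edgeR adjusted p = 0.0304) or those with a doublet score over 0.15 (1.95, edgeR adjusted p = 0.0196), with a range of 0.0196 to 0.752 over its 13 alternatives.

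Other markers moved in the precursor class too. The 10 mature oligodendrocyte markers summed to 5889, 2831 and 34629 CPM in sham and 1417, 1794 and 21175 CPM after infarction, so that libraries 3 of both groups stood apart. The precursor markers were lower after infarction, with Pdgfra at 863 to 1175 CPM in sham and 112 to 218 CPM after infarction and Olig1 at 2516 to 3449 and 397 to 855 CPM, and Neu4 was at 0 in every library. Macrophage markers summed to 393 to 929 CPM in sham and 1407 to 5083 CPM after infarction, with Cd163 at 0. Smooth muscle markers summed to 1218 to 5536 CPM in sham and 3.99 to 16.9 CPM after infarction (10 of 10 lower without overlap), and pericyte markers to 439 to 652 and 49.5 to 75.5 CPM (7 of 10 lower). The part of these in the results was not tested.

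Cell cycle genes rose in this class, whereas not all members did. All 19 S phase genes tested were called higher, with a median log2 fold change of 1.84 against -0.12 over all genes tested, and 15 of 17 mitosis genes were, with a median of 4.03. Dut, which keeps uracil out of DNA, rose by 3.34 ± 0.36 on the log2 scale (edgeR adjusted p = 0.000662), and Ccna2, the S phase cyclin, by 5.18 ± 0.74 (edgeR adjusted p = 0.00174). Of the other CDK inhibitors 3 of 4 rose, Cdkn3 by 3.32 ± 0.68, Cdkn2b by 1.61 ± 0.40 and Cdkn2a by 1.49 ± 0.48 (edgeR adjusted p = 0.0124, 0.0159 and 0.0430). Cks1b, a subunit of the ubiquitin ligase that removes p27, rose by 3.06 ± 0.40 (edgeR adjusted p = 0.00125). Among pocket proteins and E2F factors, Tfdp1 rose (1.25 ± 0.29, edgeR adjusted p = 0.0110) and Rb1, the retinoblastoma gene, fell (-2.04 ± 0.59, edgeR adjusted p = 0.0303), out of 4 tested.

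Of 12 genes of the ERK list tested in the precursors, 4 rose and 3 fell. Myc, a growth factor response gene whose protein binds E-boxes, rose from 8.23 ± 3.55 to 57.9 ± 9.95 CPM (3.00 ± 0.38, edgeR adjusted p = 0.00119), and Etv5 fell (-1.48 ± 0.27, edgeR adjusted p = 0.00384). The promoter of Cdk4 is shown because it holds 3 matches to the E-box CACGTG, searched on both strands, which read alike. In 250 bases before the annotated start (RefSeq, GRCr8, chr7:64771203-64771452, plus strand), the matches in capitals begin 203, 183 and 95 bases before the start. A match was found in 5.59% of 33469 promoters of that length, and in none of the promoters of Ccnd3, Cdkn1a, Cdkn1b and Cdkn2c, the other members listed in the table.
Cdk4: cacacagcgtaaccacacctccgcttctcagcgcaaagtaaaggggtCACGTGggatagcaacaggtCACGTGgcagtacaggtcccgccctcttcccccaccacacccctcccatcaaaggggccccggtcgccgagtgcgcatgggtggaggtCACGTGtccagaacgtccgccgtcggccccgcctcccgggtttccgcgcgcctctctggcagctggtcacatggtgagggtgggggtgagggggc
These letters are a description of the sequence and say nothing of binding in these cells.

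In T or NK cells (343 sham and 286 infarction cells), Ccnd3 was called lower and Cdkn2c higher. Of the 8 genes, 4 passed the filter, with 1 called higher and 1 lower, in a class where 4.83% of 4681 genes were called higher and 2.69% lower. With upper quartile in place of TMM scaling the share of calls that were higher went from 64.2% to 52.3%. Ccnd3, the D cyclin that lymphocytes depend on, stood at 176, 129 and 176 CPM in sham and 90.5, 54.8 and 66.6 CPM after infarction, without overlap (-1.15 ± 0.21, edgeR adjusted p = 0.00171). It was called in 14 of 14 alternatives.

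Cdkn2c was at 8.29, 20.3 and 9.37 CPM in sham, from 4, 18 and 4 UMIs, and 35.7, 35.6 and 39.6 CPM after infarction (1.41 ± 0.38, edgeR adjusted p = 0.0260). The infarction libraries were close together and above all sham libraries. Cdkn2c passed the filter on low counts through them, so its call is given as a description only. The call was lost with DESeq2 (adjusted p = 0.115) and without sham 1 (edgeR adjusted p = 0.1), sham 3 (0.103), infarction 2 (0.0823) or infarction 3 (0.0564).

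Ccnd2 was at 85.0, 32.8 and 39.8 CPM in sham and 27.4, 26.7 and 15.9 CPM after infarction and was not called (-1.09 ± 0.37, edgeR adjusted p = 0.0878), except with no filter on low counts (edgeR adjusted p = 0.0212), with a range up to 0.439 over its alternatives. Cdkn1b overlapped between groups (0.23 ± 0.18, edgeR adjusted p = 0.500). Ccnd1, Cdk4, Cdk6 and Cdkn1a were too sparse to be tested there.

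Mitosis genes moved in the T or NK class as well. Their summed level was 28.1 to 124 CPM in sham and 280 to 1045 CPM after infarction, and 13 of 17 were higher without overlap. Of 6 tested, Cdc20 (3.21 ± 0.63, edgeR adjusted p = 0.00474) and Birc5 (3.92 ± 0.86, edgeR adjusted p = 0.0308) were called. The replication clamp gene Pcna rose by 0.86 ± 0.21 (edgeR adjusted p = 0.0152). The 3 CD3 genes, which mark T cells, summed to 1750 to 2664 CPM in sham and 2063 to 2502 CPM after infarction, and 5 NK receptor and granule genes to 919 to 1395 and 606 to 1077 CPM. Smooth muscle markers summed to 683 to 984 CPM in sham and 0 to 8.23 CPM after infarction (10 of 10 lower without overlap), and macrophage markers to 25.8 to 106 and 360 to 645 CPM (4 of 11 higher), with Cd163 at 0. The median mitochondrial share was 4.75% to 5.76% in sham and 6.90% to 9.29% after infarction, and the part of these was not tested.

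In endothelial cells (353 sham and 169 infarction cells), Ccnd1 and Cdkn1a fell. Of the 8 genes, 5 passed the filter, with 0 called higher and 2 lower, in a class where 6.66% of 6039 genes were called higher and 6.69% lower. Cdkn1a stood at 317, 242 and 409 CPM in sham and 122, 103 and 90.2 CPM after infarction. Every infarction library lay below every sham library (-1.47 ± 0.22, edgeR adjusted p = 0.000440), and it was called in 13 of 13 alternatives.

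Ccnd1 was at 279, 201 and 257 CPM in sham and 122, 123 and 150 CPM after infarction (-0.74 ± 0.19, edgeR adjusted p = 0.0168). The groups did not overlap, but the call was lost without sham 1 (edgeR adjusted p = 0.0632), infarction 1 (0.0701) or infarction 2 (0.0618). Ccnd3 overlapped between groups (0.16 ± 0.19, edgeR adjusted p = 0.643), and Ccnd2 (-0.83 ± 0.40, edgeR adjusted p = 0.201) and Cdkn1b (-0.21 ± 0.21, edgeR adjusted p = 0.592) did not overlap in CPM and were not called.

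In the same class 1 of 9 p53 target genes was called, Phlda3, a repressor of AKT signalling, which fell (-3.47 ± 0.75, edgeR adjusted p = 0.0285), and Foxo1, a transcription factor that AKT holds out of the nucleus, fell (-1.23 ± 0.35, edgeR adjusted p = 0.0303). Myc rose from 4.13 ± 1.12 to 45.9 ± 33.6 CPM (3.44 ± 0.52, edgeR adjusted p = 0.000460).

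Depth and other cells' markers differed between the endothelial groups. The median was 6579 to 7140 UMIs per cell in sham and 3680.5 to 4078.5 after infarction, and the median mitochondrial share 6.75% to 8.37% and 11.8% to 14.3%. Smooth muscle markers summed to 1385 to 2887 CPM in sham and 66.2 to 844 CPM after infarction (8 of 10 lower without overlap), and macrophage markers to 24.8 to 295 and 2459 to 6432 CPM (6 of 11 higher), with Cd163 at 0. Of the endothelial markers, Cldn5 (5957 to 8144 and 4896 to 5699 CPM), Flt1 (2142 to 2892 and 1387 to 1513 CPM) and Tek lay lower without overlap. Vwf lay higher, at 438 to 693 and 1014 to 1265 CPM, and Cdh5, Slco1c1, Itm2a and Kdr overlapped. The part of these in the fall of Cdkn1a and Ccnd1 was not tested.

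In dendritic cells (109 sham and 1893 infarction cells), Cdkn1a rose. All 8 genes passed the filter, with 1 called higher and 0 lower, in a class where 8.08% of 8594 genes were called higher and 5.89% lower. With upper quartile scaling the share of calls that were higher went from 57.8% to 46.9%. Cdkn1a stood at 21.3, 37.9 and 23.4 CPM in sham and 142, 117 and 112 CPM after infarction. All infarction libraries were well above all sham libraries (2.07 ± 0.27, edgeR adjusted p = 5.81e-05). It was called in the 14 alternatives that kept both clusters of the class, and also without the smaller cluster (1.74 ± 0.28, edgeR adjusted p = 0.000459).

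The promoter of Cdkn1a is shown because its transcript changed in opposite directions in dendritic and endothelial cells and because p53, its best-known regulator, binds pairs of half-sites. In 250 bases before the annotated start (RefSeq, GRCr8, chr20:7150682-7150931, plus strand), searched on both strands, 1 match to the p53 half-site, in capitals, begins 201 bases before the start. Such a match was found in 6.64% of 33469 promoters, Cdkn2c among them (1 match, 11 bases before the start).
Cdkn1a: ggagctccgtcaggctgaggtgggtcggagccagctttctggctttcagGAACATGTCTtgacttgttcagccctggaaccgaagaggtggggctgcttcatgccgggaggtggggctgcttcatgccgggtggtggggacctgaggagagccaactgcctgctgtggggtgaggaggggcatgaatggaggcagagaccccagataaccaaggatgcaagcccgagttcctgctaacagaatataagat
The match is a description of the letters only.

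Of the other p53 target genes tested in dendritic cells, 2 of 10 were called higher and 0 lower, with a median log2 fold change of 0.14 against 0.04 over all genes. Plk2 rose by 2.63 ± 0.43 (edgeR adjusted p = 0.000589) and Bax, which promotes cell death, by 0.95 ± 0.17 (edgeR adjusted p = 0.00144). Cdkn1c, which encodes the inhibitor p57, fell (-2.75 ± 0.66, edgeR adjusted p = 0.0100). Of the ERK list 3 of 8 fell and 0 rose, with log2 fold changes of -1.16 ± 0.21 for Dusp6, -1.26 ± 0.31 for Egr1 and -1.44 ± 0.42 for Myc (edgeR adjusted p = 0.00136, 0.0122 and 0.0311).

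Ccnd1 in dendritic cells was at 179, 159 and 205 CPM in sham and 130, 104 and 154 CPM after infarction and was not called (-0.45 ± 0.18, edgeR adjusted p = 0.107). It was called without infarction 3 (-0.72, edgeR adjusted p = 0.0171), and the adjusted p ranged from 0.0171 to 0.346 over the 14 alternatives that kept both clusters of the class. These clusters differed. In the cluster led by RT1-Ba, RT1-Bb and RT1-Db1, which present antigen, Ccnd1 was at 208, 227 and 229 CPM in sham and 82.9, 86.0 and 84.8 CPM after infarction, and with that cluster alone the fold change was -1.36 ± 0.16 (edgeR adjusted p = 2.12e-05, an alternative chosen after seeing the data).

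The other dendritic cluster, led by Cd24 and gene models without a name, lay the other way. It was 45.9% of the class in sham and 19.4% after infarction, and held 3, 1 and 0 UMIs of Ccnd1 in the 10, 34 and 6 cells of sham 1 to 3, and 385, 297 and 446 CPM, from 419, 204 and 588 UMIs, after infarction. Cdkn1a in that cluster was at 168 to 235 CPM after infarction, from 132 to 256 UMIs, and had 0, 3 and 0 UMIs in sham. Siglech, also a leading gene there, was at 46.9, 0 and 0 CPM over the class in sham and 44.5 to 120 CPM after infarction. Whether the sham and infarction cells of this cluster are of the same type was not tested, so no change within a cell type is read here.

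The remaining members did not pass the test in dendritic cells. Cdkn2c was at 8.53 to 11.7 CPM in sham and 3.55 to 6.24 CPM after infarction (-1.0 ± 0.59, edgeR adjusted p = 0.284), and Ccnd2 overlapped between groups (-0.72 ± 0.37, edgeR adjusted p = 0.213). Ccnd3, Cdk4, Cdk6 and Cdkn1b also overlapped, with fold changes of 0.04 to 0.32. Macrophage markers summed to 859 to 1101 CPM in sham and 3901 to 4494 CPM after infarction in this class, and smooth muscle markers to 568 to 2346 and 1.33 to 4.79 CPM. Of the 10 dendritic markers, 2 lay lower without overlap, Xcr1 (40.4 to 132 and 4.96 to 13.4 CPM) and Cd74 (25517 to 31763 and 12010 to 12846 CPM). Another 2 lay higher, Ccl17 (0 to 17.6 and 43.8 to 260 CPM) and Ccl22. Whether both groups hold the same dendritic types, and the part of these shifts in the rise of Cdkn1a, was not tested.

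**Figure D3:**
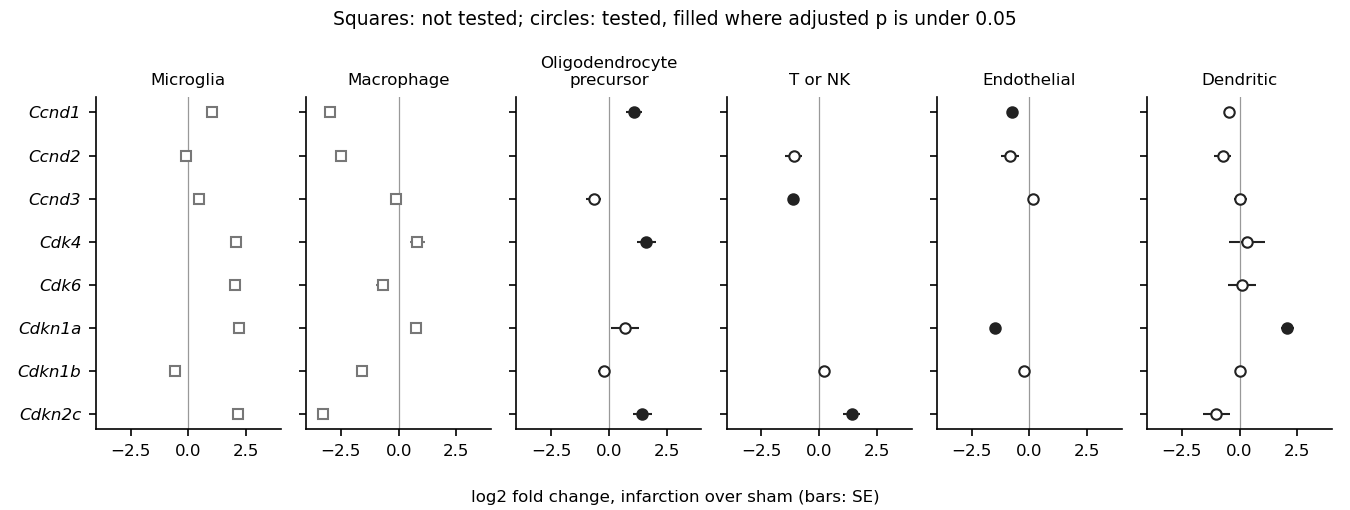
Log2 fold change, infarction over sham, of the 8 genes in 6 classes, with the SE as bars. Squares mark microglia and macrophages, where the genes were chosen and not tested, circles mark tested classes and are filled at an adjusted p under 0.05, and genes below the low-count filter have no symbol. Cdkn1a lies at 2.07 in dendritic cells and -1.47 in endothelial cells.

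Whether a gene's change differed between these 4 classes was tested as the interaction of class and group in edgeR, with the library as a block, over 6 pairs of classes and 38 combinations of a member and a pair. Of these, 4 were called. For Cdkn1a, the change in endothelial cells lay below that in dendritic cells, with a log2 difference of -3.45 ± 0.35 (edgeR adjusted p = 3.50e-06), where 8.14% of genes were called. The change of Cdkn1a in T or NK cells lay above that in endothelial cells by 2.29 ± 0.40 (edgeR adjusted p = 0.000811, 5.12% of genes called). Cdkn1a failed the filter in T or NK cells alone, with 7, 12 and 5 UMIs in sham and 11, 20 and 10 after infarction. It entered this pair through its counts in endothelial cells, so this call shows no change in T or NK cells by itself. For Ccnd3, the change in T or NK cells lay below that in endothelial cells, with a difference of -1.31 ± 0.29 (edgeR adjusted p = 0.00637).

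For Ccnd1, the change in oligodendrocyte precursors was 1.84 ± 0.41 above that in endothelial cells (edgeR adjusted p = 0.0216, 6.77% of genes called), which was lost without sham 1 (edgeR adjusted p = 0.0668), infarction 1 (0.0943) or infarction 2 (0.0923). No member was called between dendritic cells and oligodendrocyte precursors (6.23% of genes called), dendritic and T or NK cells (4.16%) or oligodendrocyte precursors and T or NK cells (6.74%), with all libraries and the block. Alternatives did call some. Between dendritic cells and precursors, Ccnd1 was called with no library block (edgeR adjusted p = 0.0312) and without infarction 3 (0.0154), Cdkn2c without infarction 3 (0.0400) and Cdkn1a without sham 1 (0.0444). Between dendritic and T or NK cells, Ccnd3 was called without sham 1 (edgeR adjusted p = 0.00837) and Ccnd1 without sham 2 (0.0304). Between precursors and T or NK cells, Cdk6 was called without sham 1 (edgeR adjusted p = 0.0478) or infarction 1 (0.0323). Cdk6 had 1, 0 and 0 sham UMIs in precursors and was not tested in this pair with all libraries, so nothing is read from these calls. Against endothelial cells, without sham 2, Cdkn1a was called in precursors (edgeR adjusted p = 0.000578) and Ccnd1 in T or NK cells (0.00385). For Cdkn2c, the difference between precursors and T or NK cells was 0.06 ± 0.42 and was not called. In T or NK cells Cdkn2c had passed the filter through its infarction libraries, so no shared rise is read from this.

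**Figure D4:**
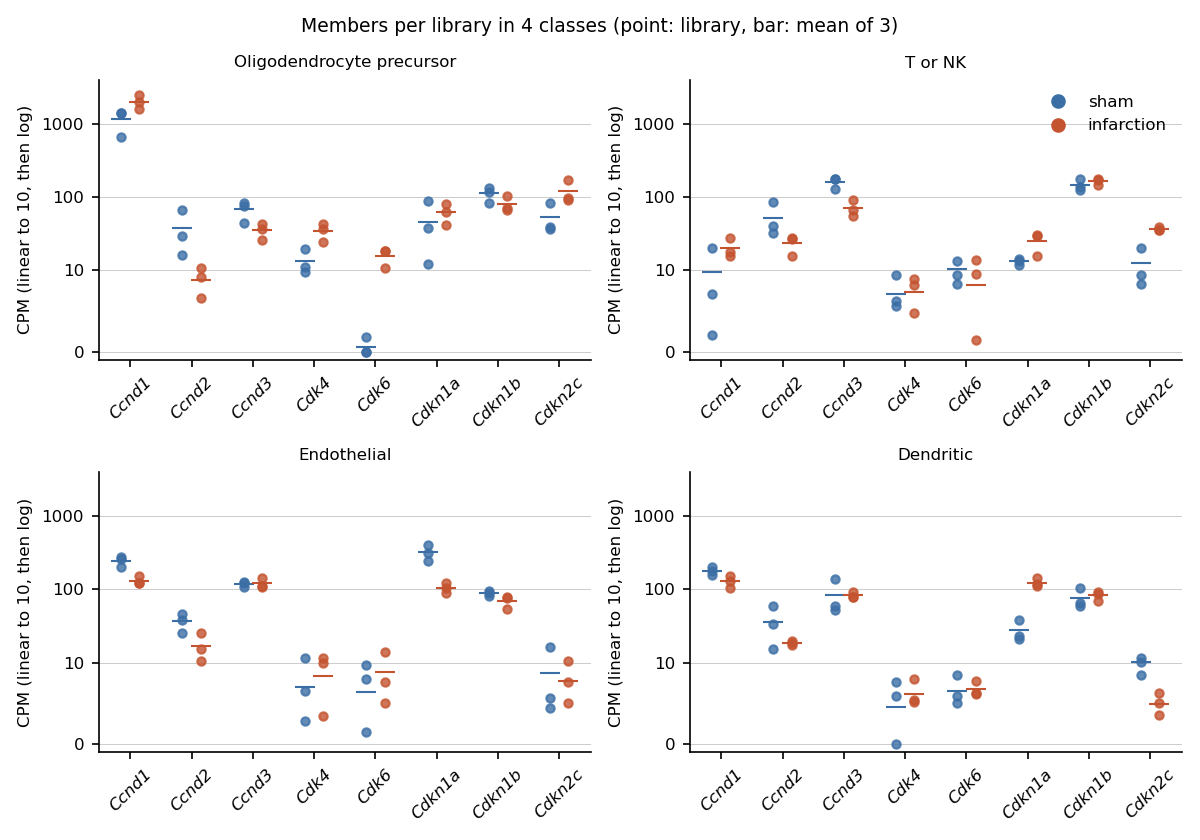
The 8 genes in CPM in oligodendrocyte precursors, T or NK cells, endothelial cells and dendritic cells, 1 point for each library, coloured by group. Cdkn1a in dendritic cells lies at 21.3 to 37.9 CPM in sham and 112 to 142 CPM after infarction, and Ccnd3 in T or NK cells at 129 to 176 and 54.8 to 90.5 CPM.

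Neutrophils, ependymal cells and pericytes had 10 cells in every library but not 20. Neutrophils, with 13, 44 and 12 sham cells and 974 to 2051 cells per infarction library, held 317, 373 and 462 CPM of Ccnd3 in sham, from 9, 37 and 21 UMIs, and 42.0, 42.7 and 42.0 CPM after infarction. Ccnd3 fell there by 2.96 ± 0.30 on the log2 scale (edgeR adjusted p = 1.13e-12) and Cdkn1a rose by 0.96 ± 0.35 (edgeR adjusted p = 0.0375), although sham 2 (252 CPM) came near the lowest infarction library (269 CPM). Of 4498 genes tested in neutrophils, 635 were called higher and 314 lower, and the median log2 fold change over all of them was 0.38. The rise of Cdkn1a is to be read against that median, and all fits at 10 cells lie below the limit of 20 cells set for the tests. In ependymal cells, where 1.24% of 3961 genes were called, the lowest adjusted p of a member was 0.204 (Cdkn1a, -1.26 ± 0.41, edgeR). Pericytes had 1103 to 1692 cells per sham library but 15, 28 and 13 in infarction 1 to 3. Infarction 2 held 31.5 CPM of Ccnd1, 5.73 of Cdkn1a and 70.2 of Cdkn2c. The sham libraries held 614 to 663, 108 to 129 and 36.6 to 43.4 CPM. Of the 56 infarction pericytes, 43 came from an Inmt-led cluster with 438 sham cells. In the pericyte fit 1882 of 10056 genes were called higher and 2314 lower. No change is read from so few cells.

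Across 71 sums of a class and library from 17 classes, the named genes most like Ccnd1 in log2 CPM were Sh3rf1, Calcrl and Cav2, with Pearson correlations of 0.699, 0.694 and 0.658 and Spearman correlations of 0.693, 0.712 and 0.635. Those most like Cdkn2c were Dnmt1, the maintenance DNA methyltransferase, Kifc1, a mitotic motor, and Atad5, which unloads PCNA, at 0.740, 0.735 and 0.717 (Spearman 0.769, 0.610 and 0.646). The sums of 1 library share its depth and free RNA, and these values only describe the levels.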

How the data were processed

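The authors deposited unnormalized UMI counts for every gene and barcode of 6 libraries (10x 3′ V3.1, per the labels' protocols), made with Cell Ranger 3.1.0 after CASAVA 1.8, with Seurat 2.3.4 also named, per the submitters' processing notes. The genome build is not given in the sources used here. The 8 genes and the gene lists were chosen with earlier results of these data known.

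Cells with at least 500 UMIs, 200 genes and at most 20% mitochondrial UMIs were kept, and those with a Scrublet score above 0.25 removed (scanpy 1.11.5). Scrublet's automatic threshold had marked 0 to 2 cells per infarction library, so that score was set after seeing this. Leiden clustering (2000 variable genes without the 8 members, 30 components, 15 neighbours, resolution 1.0, no library correction) gave 30 clusters. A cluster was named by the class with most of its markers, at least 3, detected in 25% of cells and 1 log2 unit above other cells, unless its 10 leading genes held more markers of another class, which named 28 clusters and left 2 (3397 cells) unnamed.

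Counts summed per class and library (20 cells or more in each) were fitted with edgeR 4.0.16 in R 4.3.3 (TMM, filterByExpr, robust quasi-likelihood, group as the only term), with DESeq2 1.42.0 as an alternative. The script recovered known changes in simulated counts. The text names all 8 genes and the 3 genes most correlated with Ccnd1 and Cdkn2c. Per list and class it names some of up to 4 called genes with the smallest p. In microglia and macrophages these are some of up to 4 genes with the largest fold changes. No further rule set which of them were named. Same-numbered sham and infarction libraries deviated together in oligodendrocyte precursors (correlations of 0.115, 0.304 and 0.521, all above 0.1), but in no other class were all above 0.1. In precursors sham 2 and infarction 1 also reached 0.25, and libraries 3 of both groups shared high mature oligodendrocyte markers. Pairing is therefore not shown, and the labels do not give it. The main fits leave it out, and a block by replicate number is an alternative. Promoters are from a RefSeq table of GRCr8, which held 5 of the 8 genes.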

Additional observations from a re-analysis of the deposited data

Results flagged for a closer look

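For 4 results the infarction effect on a gene differed between 2 classes by the interaction test of edgeR, with the library as a block. The log2 fold change of Cdkn1a in endothelial cells minus that in dendritic cells was -3.45, since it fell in the former and rose in the latter. The change of Cdkn1a in T or NK cells minus that in endothelial cells was 2.29, although Cdkn1a was too sparse in T or NK cells for a test of its own. The change of Ccnd3 in T or NK cells minus that in endothelial cells was -1.31. The change of Ccnd1 in oligodendrocyte precursors minus that in endothelial cells was 1.84, the only one of the 4 that was lost without some single libraries.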

How the results depend on the processing

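Alternatives were RLE and upper quartile factors, DESeq2, no filter, the replicate block, leaving out each library, stricter cell filters, coarser clustering and single clusters, the last chosen after seeing the data. Over 23 results on members in the 4 tested classes, 272 of 310 alternatives gave the same call and direction, 18 lost a call, 5 gained one and 15 reversed, all 15 of them in dendritic cells among members that were not called. Those were Ccnd3 (-0.06 with upper quartile factors, -0.00 with DESeq2, -0.22 to 0.63 with a library left out), Cdk4 (-0.06 without the Cd24-led cluster, -0.16 to 1.42), Cdk6 (-0.02 to 0.37) and Cdkn1b (-0.06 with upper quartile factors, -0.18 to 0.54). In microglia and macrophages, Ccnd2 in microglia reversed to 0.19 without the cycling cluster and ranged from -0.21 to 0.02 with a library left out (0.02 without infarction 1), Ccnd3 in microglia to -0.15 in the Tmem119-led cluster, Ccnd3 in macrophages to 0.04 with no filter and 0.00 without sham 2, and Cdk6 in macrophages to 0.44 in the Lyve1 cluster. Ccnd1 and Cdkn2c moved to 1.45 and 1.43 in the Ccl4-led cluster, Cdkn2c to 1.68 without cycling microglia, and in macrophages Ccnd1 to -3.46 at Leiden resolution 0.6 and both genes to -0.28 and -0.33 in the Lyve1 cluster, while leaving out libraries gave -3.42 to -2.97 for Cdkn2c.

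Genes called numbered 875 in the Tmem119-led and 2026 in the Ccl4-led microglia against 6744 in all, and 1534 in the Lyve1 cluster against 5365 in all macrophages. They numbered 224 with DESeq2 and 591 with no filter in T or NK cells (352 otherwise), 1331 with no filter in endothelial cells (806) and 1920 in dendritic cells (1200). With a library left out the counts were 1089 to 2188 in oligodendrocyte precursors (1901 otherwise; lowest without sham 1, infarction 1 or infarction 2), 216 to 347 in T or NK cells and 524 to 704 in endothelial cells (lowest without infarction 2), and 653 to 1101 in dendritic cells (lowest without sham 2, infarction 1 or infarction 2). For differences between classes they were 258 to 514 for dendritic cells and precursors, 115 to 261 for dendritic and T or NK cells, 189 to 501 for endothelial cells and precursors and 304 to 782 for precursors and T or NK cells. The cause was not tested.

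With the replicate block 2488 genes were called in oligodendrocyte precursors in place of 1901, and that block changed no member's call in the 4 classes. Coarser clustering gave no precursor value, because precursors joined oligodendrocytes, and the limit of 10% mitochondrial UMIs left too few endothelial cells for a fit. Depth limits the kinases most: in sham, Cdk4 had 0 to 11 UMIs and Cdk6 0 to 17 UMIs per library in the 4 tested classes.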
